A study of Schmidtea mediterranea with 24 samples.

Results

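The transcript of ncam2 (SMESG000060956.1), a planarian gene named after the neural cell adhesion molecules, was followed through 6 groups of whole animals of *Schmidtea mediterranea*. It was taken as the single row with this identifier among the 22197 genes of the deposited expression table. All animals were asexual CIW4 adults, and all had taken purified double-stranded RNA in 7 feedings and were then starved for 5 days. The control RNAi group received dsRNA against unc-22, and the other groups received dsRNA against the Hox genes hox1, hox3a, hox3b, lox5b or post2b. Each group had 4 polyA RNA libraries, each from a pool of 3 animals, so a value stands for a pool and not for an animal. RNAi lowers a transcript without deleting its gene, and the depletion of each Hox transcript was not analysed here. The labels carry 1 code per group. Whatever that code marks, a worm batch included, cannot be told apart from the RNAi treatment.

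Levels were given as TPM, a measure of transcript abundance that corrects for gene length and sums to the same total in every library. The total read count per library is therefore unknown. The lowest correlation between replicates of a group, across genes on the log2 scale, was 0.985, and 16685 to 17843 genes had a value above 0 in a library. In a median-of-ratios rescaling, the factors of the control libraries (1.05 to 1.10) lay above those of the lox5b RNAi libraries (0.921 to 0.978). The median log2 fold change over all 15829 genes tested against control was -0.06 for hox1 RNAi, -0.05 for hox3b RNAi, -0.14 for hox3a RNAi, -0.15 for lox5b RNAi and -0.15 for post2b RNAi, and this scale shift has to be held beside each fall in ncam2.

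Neural cell adhesion molecules are immunoglobulin-superfamily proteins of the cell surface. In mammals they sit on neurons and glia, hold neighbouring membranes together and take part in the growth and bundling of axons. Hox genes encode homeodomain transcription factors that give cells a regional identity along the body axis. Post2b is a Hox gene of the posterior class, and the study related it to the marginal adhesive gland, the organ at the body edge with which the flatworm grips a surface. That gland is built from anchor cells and from viscid gland cells that make the adhesive.

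The identity of the gene has a limit that bears on its name. The list of Hox effectors ties SMESG000060956.1 to transcript SMED30020684 and calls it neural cell adhesion molecule 2, whereas the list of cloning primers gives the same transcript the name Neural cell adhesion molecule 1. The name ncam2 is used here for the gene identifier, without a claim about which vertebrate gene is closest. No chromosome, start or end of the gene was given in the sources used here. The study assigned no single-cell population to ncam2, so the cells that hold the transcript are not known from these data.

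The 2 primers below are shown because they tie the name to a piece of transcript that can be looked up. Each is written 5′ to 3′ in lower case, with the vector overhang that all 36 primer pairs share removed, and each is 23 bases long.
ncam2 forward: atttgaaaccgaatacccgatac
ncam2 reverse: aacgagaaataagaaaacagcca

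ncam2 was a transcript of middling abundance that had its lowest mean in lox5b RNAi. In a single library it stood at or above 37.5% to 64.9% of the genes tested. The control RNAi libraries held 24.3, 19.4, 18.9 and 18.1 TPM in replicates 1 to 4, with a mean of 20.2 ± 2.83 TPM (SD, n = 4). Replicate 1 was the high control library. The lox5b RNAi libraries held 7.84, 7.83, 10.8 and 13.02 TPM, with a mean of 9.87 ± 2.52 TPM (SD, n = 4), which was 48.9% of the control mean. All 4 of them lay below the lowest control library.

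The post2b RNAi libraries held 15.4, 9.41, 10.6 and 11.4 TPM, with a mean of 11.7 ± 2.59 TPM (SD, n = 4), or 58.0% of the control mean. These 4 also lay below every control library, with replicate 1 the highest of them. The hox3a RNAi libraries held 18.3, 13.8, 8.05 and 10.9 TPM, with a mean of 12.8 ± 4.38 TPM (SD, n = 4), or 63.2% of control. Their spread was wide, and replicate 1 reached into the control range.

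The hox1 RNAi libraries held 16.3, 12.002, 14.4 and 14.6 TPM, with a mean of 14.3 ± 1.76 TPM (SD, n = 4), or 70.9% of control. All 4 lay below the lowest control library. The hox3b RNAi libraries held 16.8, 26.0, 18.2 and 14.2 TPM, with a mean of 18.8 ± 5.11 TPM (SD, n = 4), or 93.2% of control. This group overlapped the control group on both sides, since replicate 2 was the highest of all 24 libraries.

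**Figure D1:**
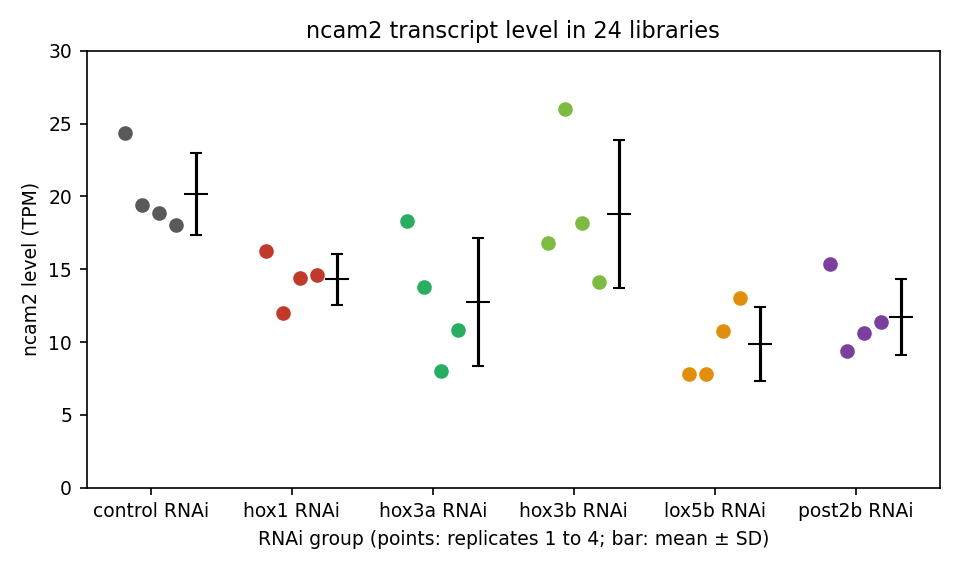
ncam2 level in TPM (y axis, from 0) in each library (points, replicates 1 to 4 from left to right within a group) by RNAi group (x axis), with the group mean and SD as a bar. The hox1, lox5b and post2b RNAi points all lie below the lowest control point of 18.1 TPM, whereas the hox3b RNAi points straddle the control range.

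The first question was whether silencing a Hox gene was accompanied by a change in ncam2 relative to control RNAi. The test was limma on log2(TPM + 0.5) with Benjamini-Hochberg adjustment over the 15829 genes, and a gene was called at 1.5-fold with an adjusted p under 0.05, or for lox5b RNAi against control at 2-fold with an adjusted p under 0.01. Fold changes are on this log2 scale and slightly understate those of low genes. Nothing in the labels says that the pools came from separate cultures, so the p-values measure the spread between these pools. The 5 comparisons share the 4 control libraries, which also took part in the study's choice of the gene.

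ncam2 fell in lox5b RNAi by 1.02 on the log2 scale (SE 0.21, 95% interval -1.44 to -0.59), which is 2.02-fold lower, with a limma Benjamini-Hochberg adjusted p of 0.000285. Among all genes tested, 3.92% were called lower in this comparison and 32.6% had all 4 lox5b RNAi libraries below all 4 controls, so the separation of the libraries was common. A more negative value was found for 3.79% of genes. Relative to the median gene the difference was -0.86. The fold lies at the edge of the 2-fold cutoff, and it was 0.92 or 0.93 lower on the log2 scale without lox5b replicate 1, lox5b replicate 2 or control replicate 1, which ends the call while the adjusted p stays at or below 0.00184 (limma, Benjamini-Hochberg). After median-of-ratios rescaling the log2 difference was -0.87, again under the 2-fold cutoff.

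ncam2 fell in hox3a RNAi by 0.69 on the log2 scale (SE 0.21, 95% interval -1.12 to -0.27), or 1.62-fold, with a limma Benjamini-Hochberg adjusted p of 0.0182. The background share called lower here was 4.07%, and 3 of the 4 hox3a RNAi libraries lay below every control, beside 24.7% of genes with all 4 below. This call was not stable. The adjusted p (limma, Benjamini-Hochberg) was 0.0926 without hox3a replicate 3, 0.0564 without hox3a replicate 4, 0.0655 without control replicate 1 and 0.0627 after rescaling.

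ncam2 did not pass the test in hox1 RNAi, with a log2 difference of -0.48 (SE 0.21, 95% interval -0.90 to -0.05) and a limma Benjamini-Hochberg adjusted p of 0.153. Its libraries did not overlap with control, as was the case for 9.34% of genes in the lower direction, while 1.58% were called lower. A fit of only the hox1 and control libraries gave an SE of 0.11 and a limma Benjamini-Hochberg adjusted p of 0.0231. The fall of 1.39-fold stayed under the 1.5-fold cutoff, so it was not called there either. Of 17 alternatives, this was the only 1 with an adjusted p under 0.05. In hox3b RNAi the log2 difference was -0.13 (SE 0.21, 95% interval -0.55 to 0.30) with a limma Benjamini-Hochberg adjusted p of 0.750, against a background of 1.11% called lower.

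In post2b RNAi the log2 difference from control was -0.77 (SE 0.21, 95% interval -1.20 to -0.35), or 1.71-fold lower. No p is given, because the study named ncam2 as a post2b effector from the genes that differed between these same libraries. The interval has the same limit and is not to be read as a test. The background share called lower was 4.73%, 26.9% of genes had all 4 post2b RNAi libraries below control, and 2.12% of genes had a more negative value than ncam2. Relative to the median gene the difference was -0.63.

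**Figure D2:**
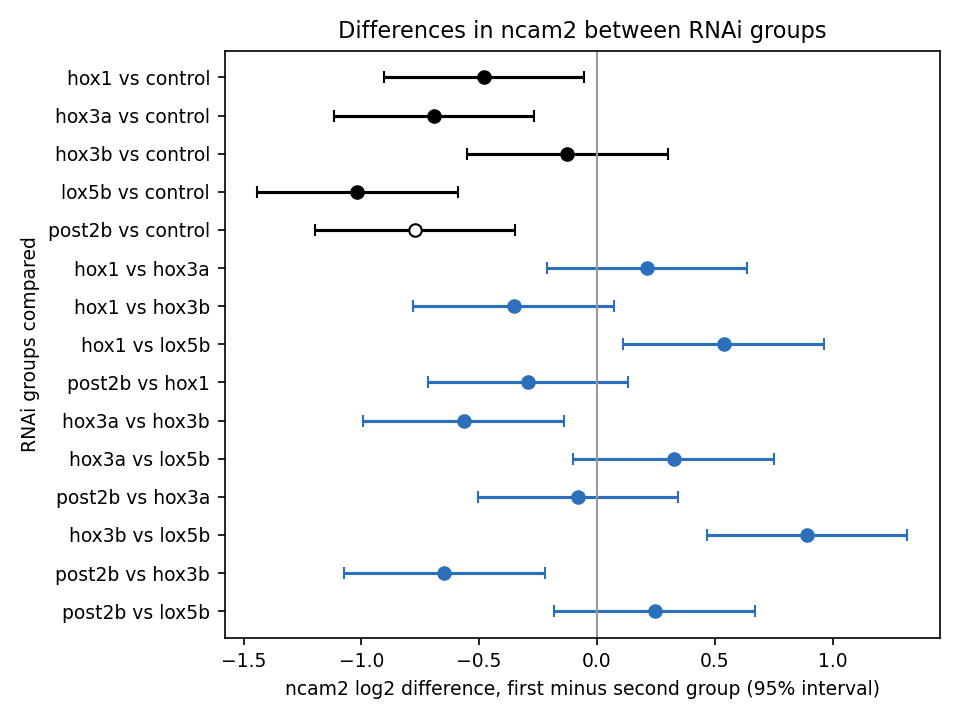
Log2 difference in ncam2 (x axis, first minus second group, points) with its 95% interval from limma (bars) for each pair of RNAi groups (y axis). Comparisons with control are black and those between Hox RNAi groups are blue. The open point for post2b against control (-0.77) carries no test, and its bar is not to be read as one. The difference between lox5b RNAi and control (-1.02) and that between hox3b and lox5b RNAi (0.89) lie farthest from 0.

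The Hox RNAi groups were then set against each other, which leaves the control libraries out of the contrast. From lowest to highest mean, the order was lox5b, post2b, hox3a, hox1, hox3b and control, and it was the same after rescaling (10.2, 12.1, 13.2, 13.9, 18.3 and 18.8 rescaled TPM). No neighbours in this order passed the test. The difference was 0.24 between post2b and lox5b RNAi (95% interval -0.18 to 0.67), -0.08 between post2b and hox3a RNAi (95% interval -0.51 to 0.34), 0.21 between hox1 and hox3a RNAi (95% interval -0.21 to 0.64) and -0.35 between hox1 and hox3b RNAi (95% interval -0.78 to 0.07), all on the log2 scale as first minus second. Their limma Benjamini-Hochberg adjusted p-values were 0.405, 0.885, 0.579 and 0.405, and the shares of all genes called in the same direction were 4.11%, 1.61%, 0.657% and 1.24%. Each interval reaches past 0.5 in one direction, so the neighbours are not shown to be alike.

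Among the Hox RNAi groups, 1 pair was called. ncam2 was 1.86-fold higher in hox3b than in lox5b RNAi, a log2 difference of 0.89 (SE 0.21, 95% interval 0.47 to 1.32) with a limma Benjamini-Hochberg adjusted p of 0.00257. All 4 hox3b RNAi libraries (14.2 to 26.0 TPM) lay above all 4 lox5b RNAi libraries (7.83 to 13.02 TPM). In this comparison 6.46% of genes were called higher and 15.8% had non-overlapping libraries in this direction. The call was made under all 17 alternatives run, with log2 differences from 0.73 to 1.03 and limma Benjamini-Hochberg adjusted p-values from 0.000913 to 0.0178.

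The remaining pairs did not pass. The log2 difference was 0.54 for hox1 against lox5b RNAi (adjusted p 0.0544), 0.33 for hox3a against lox5b RNAi (adjusted p 0.268), -0.57 for hox3a against hox3b RNAi (adjusted p 0.154), -0.65 for post2b against hox3b RNAi (adjusted p 0.0536) and -0.29 for post2b against hox1 RNAi (adjusted p 0.370), with p-values from limma, Benjamini-Hochberg adjusted. For these pairs, in the direction of ncam2, 5.26%, 3.91%, 0.183%, 1.91% and 1.2% of all genes were called. The post2b libraries took part in the choice of the gene, so the contrasts with post2b RNAi are not independent of it. The post2b against hox3b and the hox1 against lox5b pairs change sides of the threshold under some alternatives.

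The libraries of a group varied more for ncam2 than for most genes. The residual SD over the 24 libraries was 0.291 on the log2 scale, larger than in 84.0% of the genes tested. The departures of ncam2 from its group means moved with those of many other transcripts. The first principal component of within-group departures, over 14305 genes with a mean of at least 1 TPM and ncam2 itself, held 24.9% of their variance, and ncam2 followed it with r = 0.93 over 24 libraries. At the within-group level 436 genes had r of at least 0.8 with ncam2 and 216 had r of -0.8 or less. The libraries in which ncam2 stood high for their group, such as replicate 1 of hox3a and post2b RNAi and replicate 2 of hox3b RNAi, were thus high for a large set of genes as well. What sets this shared component was not tested.

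ncam2 was next compared with the 14 other effectors that the study assigned to post2b. They include ifb, an intermediate filament gene, and lmnAC, a lamin of the nuclear envelope, both assigned to anchor cells. Also among them are rcn-1, an endoplasmic reticulum calcium-binding protein, and syt1, a synaptotagmin of the secretory machinery, both assigned to viscid gland cells. The study took its candidates, ncam2 included, from genes that differed in these libraries. It then kept those whose own RNAi strongly reduced fission progeny without evident change in body form or size. Their falls in post2b RNAi are therefore a description.

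In post2b RNAi 14 of 14 other effectors were called lower than control (background 4.73%), with a median log2 fold change of -2.33, and ncam2 at -0.77 ranked 14th of 15 from the most negative. Only eve, an even-skipped homeobox gene, was closer to 0, at -0.73. In lox5b RNAi 0 of the 14 were called at the 2-fold cutoff (background 3.92% lower), with a median of -0.32. At the 1.5-fold and 0.05 cutoff of the other groups, 2 of 14 were called lower, beside 14.1% of all genes. ncam2, at -1.02, had the most negative value of the 15 in lox5b RNAi, followed by syt1 at -0.90. In hox1, hox3a and hox3b RNAi 0 of the 14 were called lower by limma (backgrounds 1.58%, 4.07% and 1.11%). With no fold cutoff, an unadjusted limma p under 0.05 was reached by 0, 3 and 3 of the 14 in these groups and by 7 in lox5b RNAi, beside 24.9%, 38.9%, 24.1% and 58.1% of all genes.

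ifb fell from 300.1 ± 27.3 TPM in control to 43.5 ± 30.1 TPM in post2b RNAi and stood at 220.1 ± 20.5 TPM in lox5b RNAi (mean ± SD, n = 4). syt1 went from 16.9 ± 1.93 TPM to 2.04 ± 1.05 TPM in post2b RNAi and 8.98 ± 2.27 TPM in lox5b RNAi. For both, post2b RNAi was the lowest group by a wide margin. The ncam2 means had the other order, with 11.7 TPM in post2b and 9.87 TPM in lox5b RNAi, though this difference was not called.

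The contrast of post2b with lox5b RNAi gives this difference without the control libraries. All 14 other effectors had a lower value in post2b than in lox5b RNAi, and 13 of them were called lower by limma with Benjamini-Hochberg adjustment (background 1.83%), from -2.62 for ifb to -0.64 for zmym2 on the log2 scale. The exception, nipbl, which is named after a cohesin-loading factor, stood at -0.48 with a limma Benjamini-Hochberg adjusted p of 0.142. ncam2 was the single effector of the 15 with a positive value, at 0.24, and it was not called. As the other 14 were picked in part because they differed in post2b RNAi in these libraries, their count is no independent evidence.

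**Figure D3:**
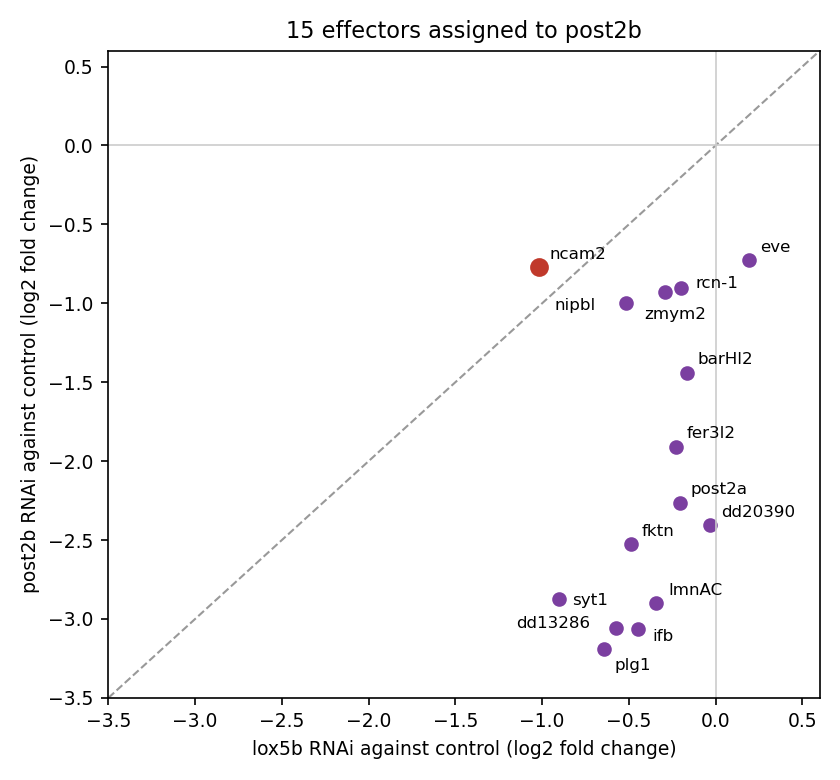
Log2 fold change against control in lox5b RNAi (x axis) and post2b RNAi (y axis) for the 15 effectors assigned to post2b, 1 point a gene, with ncam2 in red and the dashed line where both values are equal. Both axes use the same control libraries. The 14 other effectors lie below the dashed line, and ncam2 lies above it at -1.02 and -0.77.

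The effectors were also compared library by library. Over the 24 libraries, the Pearson r of log2(TPM + 0.5) with ncam2 ran from -0.07 for eve to 0.43 for nipbl among the 14 other post2b effectors, with a median of 0.29. The median over all 14305 genes compared was 0.35. The 3 effectors that the study assigned to lox5b had r = 0.92 (sox5), 0.91 (znf816) and 0.88 (samcp), and within groups, with the group means removed, r = 0.90, 0.89 and 0.84. Effectors of other Hox genes lay between or lower, with r = 0.72 for gfm2 and 0.55 for dd25334 (both hox3a). For ca7 (hox3a and hox3b) r was 0.64, and for gm2a (hox1) it was 0.26. These points share their libraries, the total to which each TPM column sums and the group means, and the values are given as a description.

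sox5 encodes an SRY-box transcription factor. Its level was 8.80 ± 0.602 TPM in control, 3.83 ± 1.35 TPM in lox5b, 5.71 ± 1.41 TPM in hox3a and 6.07 ± 0.845 TPM in post2b RNAi (mean ± SD, n = 4). The group order of sox5 was close to that of ncam2, with lox5b RNAi lowest and control highest. znf816, which encodes a zinc finger protein, stood at 3.93 ± 0.729 TPM in control, 1.65 ± 0.755 TPM in lox5b and 2.33 ± 0.895 TPM in post2b RNAi. samcp, which encodes a sterile alpha motif protein, went from 35.8 ± 3.43 TPM in control to 15.4 ± 3.55 TPM in lox5b and 22.4 ± 5.29 TPM in post2b RNAi. In lox5b RNAi all 3 were called lower (background 3.92%), with log2 fold changes of -1.16, -1.10 and -1.21, but they were chosen by the study for that contrast.

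**Figure D4:**
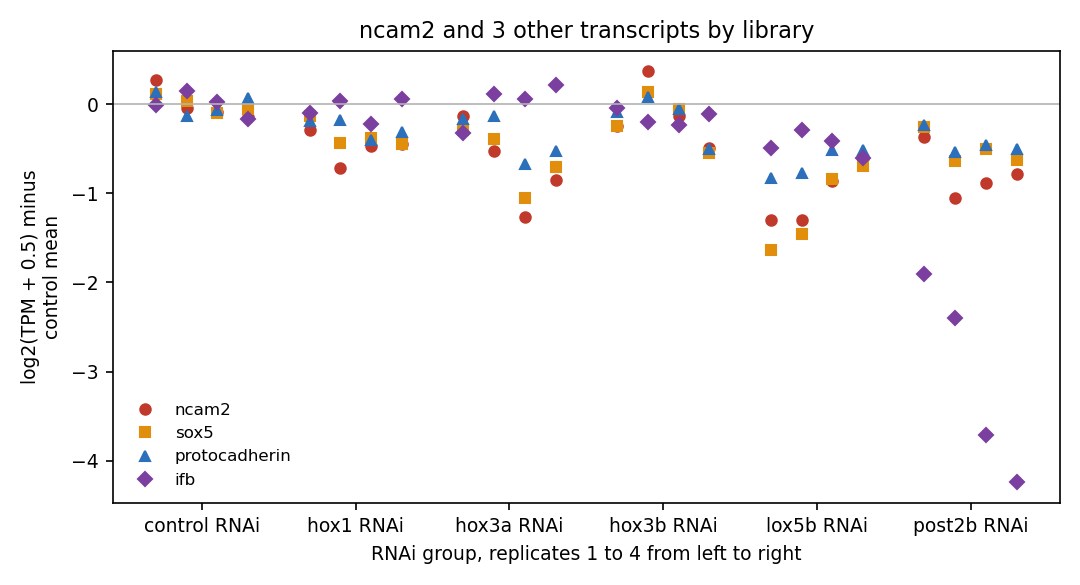
log2(TPM + 0.5) minus the mean of the 4 control libraries (y axis) for ncam2, sox5, protocadherin (SMESG000002712.1) and ifb in each library (x axis, replicates 1 to 4 from left to right within each RNAi group). The ncam2, sox5 and protocadherin points move together, for example in hox3a replicate 3 and in lox5b replicates 1 and 2, whereas ifb has its low points in post2b RNAi.

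By Pearson r of log2(TPM + 0.5), the 10 closest genes of 14305 had r = 0.94 to 0.96 with ncam2 over 24 libraries and r = 0.89 to 0.95 within groups. None of the 10 has a product name in the sources used, which name only 489 of the 14305 genes compared. The first was SMESG000013817.1, with 40.6 TPM in control and 23.8 TPM in lox5b RNAi on average, and the second was SMESG000026220.1, with 45.1 TPM and 20.2 TPM. After rescaling, 9 of the 10 remained among the closest 10. Such likeness was widespread, as 1161 genes, or 8.12%, had r of at least 0.8.

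Among the 489 compared genes with a product name, the 5 closest were a Protocadherin (SMESG000002712.1, r = 0.92), a gene similar to variable lymphocyte receptors (SMESG000001734.1, r = 0.92), sox5, znf816 and a gene related to ryanodine receptors (SMESG000000646.1, r = 0.90). Protocadherins are calcium-dependent adhesion proteins of the cadherin superfamily, and ryanodine receptors release calcium from internal stores. Protocadherin had 13.5 ± 1.16 TPM in control and 8.42 ± 1.05 TPM in lox5b RNAi (mean ± SD, n = 4), a log2 difference of -0.66 (SE 0.13), which is under the 2-fold cutoff. As these 5 genes were picked for following ncam2 over the same libraries, their low level in lox5b RNAi is part of the choice and carries no test.

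A wider list of 23 adhesion genes was drawn by product name, which only 527 of the 15829 genes tested have. Adhesion genes without a name are not in it, and 21 of the 23 passed the filter on low values. The 2 that did not pass were SMESG000001556.1, named after immunoglobulin superfamily member 10, and SMESG000000822.1, named after hemicentin and thrombospondin. In hox1, hox3a, hox3b and lox5b RNAi 0 of 21 were called in either direction by limma, beside 1.86%, 4.92%, 1.35% and 4.18% of all genes. An unadjusted limma p under 0.05, with no fold cutoff, was reached by 4, 9, 3 and 11 of them, beside 24.9%, 38.9%, 24.1% and 58.1% of all genes. With the cutoff of the other groups, 1 gene of 21, the Protocadherin that follows ncam2, was called lower in lox5b RNAi, a share below the 14.1% of all genes. The list's median log2 fold changes were -0.08, -0.17, -0.05 and -0.24, beside -0.06, -0.14, -0.05 and -0.15 for all genes.

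In post2b RNAi 2 of the 21 adhesion genes were called lower and 0 higher (5.06% of all genes were called), with a list median of -0.27 beside -0.15 for all genes. With no fold cutoff, 14 of the 21 reached an unadjusted limma p under 0.05, beside 40.3% of all genes. For 13 of them all 4 post2b RNAi libraries lay below all 4 controls, beside 26.9% of all genes, and for 0 they lay above. Slit-2 (SMESG000002157.1), named after a secreted axon guidance ligand, went from 6.95 ± 0.997 TPM in control to 4.09 ± 0.265 TPM (mean ± SD, n = 4), a fall of 0.69 on the log2 scale with a limma Benjamini-Hochberg adjusted p of 0.000658. Innexin unc-9 (SMESG000000555.1), a gap junction gene, fell from 1.03 ± 0.369 TPM to 0.153 ± 0.116 TPM (mean ± SD, n = 4), with post2b RNAi libraries from 0 to 0.279 TPM and a limma Benjamini-Hochberg adjusted p of 0.000453. Another gene named Innexin unc-9 (SMESG000000709.1) did not fall, with 6.64 TPM in control and 6.82 TPM in post2b RNAi, a log2 difference of 0.05. The 2 called transcripts were scarcer than ncam2, and the count of 2 became 1 after rescaling, with a filter of mean TPM of at least 2, and when only the compared groups were fitted.

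Among the 527 tested genes with a product name, the one named most like ncam2 had a flatter profile. It is a neural cell adhesion molecule L1-like protein (SMESG000003706.1), and genes without a name could not be searched. Its mean was 13.1 TPM in control RNAi, and the 5 Hox RNAi means ran from 10.96 TPM (hox3a) to 11.98 TPM (lox5b). Its log2 differences from control lay between -0.25 and -0.13, and none was called. Of the 7 tested adhesion genes of the immunoglobulin type, 0 were called by limma in any of the 5 groups, where 1.35% to 5.06% of all genes were called in either direction, so a count of 0 is near the background. An unadjusted limma p under 0.05 was reached by 1, 4, 3 and 4 of the 7 in hox1, hox3a, hox3b and lox5b RNAi. The shares of all genes were 24.9%, 38.9%, 24.1% and 58.1%. In post2b RNAi 6 of the 7 reached it, beside 40.3% of all genes. There 6 of the 7 also had all libraries below control, beside 26.9% of all genes. ncam2 had a more negative value than each of the 21 adhesion genes in hox1, hox3a and lox5b RNAi, whereas 1 of them, the innexin SMESG000000555.1, was below it in post2b RNAi and 5 were below it in hox3b RNAi.

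In whole animals, fewer cells of a type and less RNA per cell cannot be told apart. Markers of neurons, the cells on which mammalian N-CAMs are best known, were therefore read beside ncam2. The summed level of 5 neuronal genes, which encode an Elav-like protein, a pair of acetylcholine receptor subunits, an NMDA receptor subunit and a neuropeptide, was 43.8 to 50.2 TPM in the control libraries. It was 40.3 to 49.4 TPM after hox3b RNAi, 37.1 to 43.0 TPM after hox1 RNAi and 33.8 to 42.7 TPM after hox3a RNAi. In lox5b RNAi it was 36.0 to 39.8 TPM and in post2b RNAi 34.6 to 42.7 TPM. The hox1, hox3a, lox5b and post2b RNAi ranges all lay below the control range, and the hox3b range overlapped it, as for ncam2 apart from hox3a replicate 1. The single genes were less separated, with 0, 1, 2 and 1 of the 5 wholly below control in those 4 groups. The shares of all genes were 9.34%, 24.7%, 32.6% and 26.9%. Log2 fold changes of the 5 genes ran from -0.64 to -0.05 in lox5b RNAi and from -0.93 to 0.13 in post2b RNAi. By limma, 0 of the 5 genes were called in any group, beside 1.35% to 5.06% of all genes, and none was at 0 throughout a group. An unadjusted limma p under 0.05 was reached by 1, 2, 1 and 2 of the 5 in hox1, hox3a, hox3b and lox5b RNAi. The shares of all genes were 24.9%, 38.9%, 24.1% and 58.1%. In post2b RNAi 4 of the 5 reached it, beside 40.3% of all genes. The Elav-like gene (SMESG000001137.1) had the lowest mean in lox5b RNAi, 10.5 ± 0.854 TPM against 16.05 ± 1.92 TPM in control. The part of neuronal content in the ncam2 differences was not tested.

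Markers of other tissues had another order of groups. The summed level of 3 cilia genes was 13.9 to 18.5 TPM in control and 25.3 to 28.3 TPM in lox5b RNAi, where the ncam2 mean was lowest. In hox1 RNAi the cilia sum was 19.7 to 22.2 TPM. The 2 muscle genes, a tropomyosin and a myosin regulatory light chain, summed to 1658 to 1710 TPM in control and 1841 to 1901 TPM in lox5b RNAi. In post2b RNAi the cilia sum was 18.01 to 23.3 TPM, overlapping control, and the muscle sum was 1554.98 to 1754 TPM, on both sides of control. Both sums in lox5b RNAi thus lay wholly above the control range. Neither rise was particular to lox5b RNAi. The cilia sum also lay wholly above control in hox1 RNAi. The muscle sum did so in hox3b RNAi (1727 to 1809 TPM), where the ncam2 mean was 93.2% of control. The other sums in hox1, hox3a and hox3b RNAi overlapped control. The cilia genes were not alike, as the 2 of 3 that passed the filter had log2 fold changes of -0.05 and 0.84 in lox5b RNAi. In post2b RNAi these values were -0.11 and 0.43, so the cilia sum does not stand for each gene. The part of both sums in the ncam2 differences was not tested.

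The adhesive gland markers followed another order. The summed level of 7 anchor cell genes was 574.6 to 729.0 TPM in control, 432.8 to 548.6 TPM in lox5b and 38.0 to 168.4 TPM in post2b RNAi. The 3 viscid gland genes summed to 1071 to 1246 TPM in control, 892.7 to 1116 TPM in lox5b and 563.2 to 639.3 TPM in post2b RNAi. That sum was nearly all rcn-1, which had a mean of 1109 TPM in control beside 1134 TPM for the sum. In lox5b RNAi the log2 fold changes were -0.20 for rcn-1, -0.90 for syt1 and -0.23 for fer3l2, a bHLH transcription factor gene. For post2b RNAi they were -0.90, -2.87 and -1.91. In hox1 RNAi anchor cell genes were at 555.7 to 686.3 TPM, within or just under the control range. Both gland sums were thus lowest in post2b RNAi. The ncam2 mean was lowest in lox5b RNAi, but ncam2 was not called between post2b and lox5b RNAi. These lists are themselves post2b effectors, so their fall in post2b RNAi was part of how they were chosen.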

How the data were processed

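Whole-animal polyA RNA was sequenced as 75 base single reads from TruSeq Stranded libraries. Per the study's methods and the labels, reads were demultiplexed with bcl2fastq 2.20 and aligned with STAR to the smed_dd_g4 genome with at most 2 loci per read, and gene counts were made on the Smes_hv_v1 gene models. The deposited file holds TPM values, made by the authors with a tool that is not given in the sources used here. TPM keeps no depth, so no counting interval is possible, and the test on read counts that the methods state could not be run.

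From the TPM values, log2(TPM + 0.5) was fitted with limma 3.58.1 in R 4.3.3, with 1 term for the RNAi group over all 24 libraries and a trended variance, for 15829 genes with at least 0.5 TPM in at least 4 libraries. The step was tested on simulated data. Cutoffs were 1.5-fold and an adjusted p of 0.05, or 2-fold and 0.01 for lox5b RNAi against control. The methods print adjusted p cutoffs of 0.5 and, for lox5b RNAi, 0.1, which are far looser than usual, so the stricter ones were used and the printed ones tried as an alternative. The genes named were ncam2, the study's effectors, an adhesion list by product name, marker genes, and by Pearson r over 24 libraries the 10 genes most like ncam2 and the 5 most like it among those with a product name, all with a mean of at least 1 TPM. Product names are the closest protein of another species and cover 527 of the genes tested. Members and lists were chosen with earlier results of these data known. Alternatives were other pseudocounts, filters and scalings, fits on the compared groups, a replicate block and leaving out each replicate.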

Additional observations from a re-analysis of the deposited data

Results flagged for a closer look

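The difference in ncam2 between hox3b and lox5b RNAi is singled out because the effect against control differed between these groups in a test of the difference itself. It was 0.89 on the log2 scale, from 18.8 ± 5.11 TPM against 9.87 ± 2.52 TPM (SD, n = 4), with all hox3b RNAi libraries above all lox5b RNAi libraries. In each of the 6 groups, no ncam2 library stood far enough from the other 3 to pass Dixon's 95% critical value, the nearest being control replicate 1 with a gap of 0.784 of the group's range. Of the transcripts shown beside ncam2, 2 had such a library in hox3b RNAi: rcn-1, with a gap of 0.878 of the range and a highest library of 1054 TPM, and eve, with a gap of 0.840 and a highest library of 4.02 TPM. Chance passes this value in about 1 in 20 groups, and 13 transcripts were looked at in 6 groups each.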

How the results depend on the processing

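Of 239 alternatives for the 14 tested comparisons of ncam2, 221 kept the direction and the side of the threshold, 9 lost a call, 7 gained one, and 2 turned the sign of a value that was not called. The untested post2b RNAi value was below control in all 16 of its alternatives. For hox3a RNAi against control, the call was lost after rescaling (-0.54). Without 1 replicate the log2 difference ran from -0.88 to -0.50, and adjusted p-values over all alternatives ran from 0.00380 to 0.0926 (limma, Benjamini-Hochberg). For lox5b RNAi against control, pseudocount 1 gave -0.98 and rescaling gave -0.87, both under the 2-fold cutoff. Leaving out 1 replicate gave -1.16 to -0.92, and adjusted p-values ran from 0.000116 to 0.00184 (limma, Benjamini-Hochberg). At the 1.5-fold and 0.05 cutoff, chosen after seeing the data, 1 adhesion gene and 2 other post2b effectors were called in lox5b RNAi. For post2b against hox3b RNAi, a filter of mean TPM of at least 2, a fit of only the compared groups, and the adjusted p cutoff of 0.5 printed in the methods each called the main value of -0.65, with -0.78 to -0.48 without 1 replicate. For hox1 against lox5b RNAi, leaving out 1 replicate gave 0.44 to 0.68, called without hox1 replicate 2 or lox5b replicate 4. The 2 turned signs belong to post2b against hox3a RNAi (-0.27 to 0.11 without 1 replicate).

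In post2b RNAi 1 adhesion gene in place of 2 was called with a mean TPM of at least 2, after rescaling and with only the compared groups. Without 1 replicate, 0 to 2 other post2b effectors were called in hox3a RNAi and 0 to 1 in lox5b RNAi. Except for the filter, which tests fewer genes, and the fits with fewer samples, the cause of these shifts was not tested. The replicate numbers did not pair the libraries, with 9 of 60 same-number pairs above a correlation of 0.1. Of these, 6 are the replicate 1 pairs among control, hox1, hox3a and post2b RNAi (0.179 to 0.295), the libraries with the highest ncam2 level of these 4 groups. With the replicate block the value for lox5b RNAi against control stayed at -1.02 with an adjusted p of 0.000401 (limma, Benjamini-Hochberg), and the block changed no call. The unknown depth limits what can be said of the scarce transcripts.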
